A study of Mus musculus with 4 samples.

Results

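Heat shock proteins and their cochaperones are the machinery that folds, refolds and hands over other proteins, and 34 of their genes were followed here in CD8+ T cells from mouse tumours. The genes were taken by symbol from the gene table shared by all libraries. Each of the 34 was found once among its 31253 genes. They cover the HSP70 and HSP110 chaperones, the HSP90 pair, the mitochondrial chaperonin, small heat shock proteins, J-domain proteins, cochaperones of HSP70 and HSP90, and the heat shock factors Hsf1 and Hsf2. For the comparisons they were sorted by textbook knowledge into 3 classes, with earlier results of these data already known. The inducible class holds 10 genes that heat or other stress is known to raise strongly (Hspa1a, Hspa1b, Hspb1, Hspb8, Hsph1, Hsp90aa1, Dnajb1, Dnajb4, Dnaja4 and Bag3). The mixed class holds 12 genes with a basal level that heat raises further (Hspa8, Hsp90ab1, Hspd1, Hspe1, Dnaja1, Hspa4l, Chordc1, Cacybp, Ahsa1, Ahsa2, Stip1 and Fkbp4). The constitutive class holds 12 genes (Hspa4, Hspa9, Hspa14, Dnaja2, Dnajb6, Dnajc7, Bag1, Ptges3, Hsf1, Hsf2, St13 and Cdc37).

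In these T cells the inducible members were unevenly spread. Between 2.94% and 5.76% of the cells of a library held a transcript of Hspa1a or Hspa1b at equal depth. In those cells the 7 other measured inducible members had median ratios of 4.20 to 7.72 over the rest. Some of the 7 reached the level set for a measured gene in those cells alone. With that level required in the rest, a filter chosen after seeing the data, 5 were left in each library, with the same range of medians. Of the mixed members, 9 to 12 of 12 stood at least 1.5 times higher, beside 5.96% to 10.9% of all measured genes. The constitutive members had median ratios of 1.02 to 1.07. Between the groups of the study the same genes differed little. Hspb1 was the member that stood more than 1.5 times apart, lower in the knockout and in the aged cells, and transcripts of several other cell types were lower there too. That is 1 of 32 and 1 of 33 measured members, beside 3.09% and 3.83% of all measured genes that much lower. Without cells that held 3 or more counted transcripts of other cell types, the 2 Hspb1 ratios were 0.784 and 0.595.

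Chaperones of the HSP70 family bind exposed hydrophobic stretches of unfolded proteins in a cycle driven by ATP, with J-domain proteins bringing the clients and exchange factors releasing them. HSP90 takes over later folding steps of kinases and receptors, with cochaperones that set its pace. In an unstressed cell these chaperones hold the transcription factor HSF1 inactive, and when unfolded proteins draw the chaperones away, HSF1 assembles into trimers on heat shock elements, which are arrays of the unit nGAAn in alternating orientation. In T cells, activation, fever and handling of the tissue are known settings of this response.

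Droplet libraries (10x Genomics) had been made from CD45+ CD8+ T cells sorted from dissociated MB49 tumours, a mouse bladder carcinoma line, with the cells of 3 mice pooled in each of the 4 libraries. WT and KO cells came from C57BL/6Slac mice aged 10 to 12 weeks. In the KO mice Bfar, a gene for a membrane protein of the endoplasmic reticulum, was deleted in the CD8+ T cells. The sources used here name neither the Cre driver nor the exons deleted. Young and Aged cells had been transferred into Rag1-deficient hosts aged 8 to 10 weeks, which lack endogenous T and B cells, from donors aged 8 weeks or 18 months. The hosts' strain is spelled B6.129S7-Rag1tm0Mom/J for Young and B6.129S7-Rag1tm1Mom/J for Aged. Each group is 1 library, so no spread between replicates exists, no significance test was made, and every 95% interval below covers counting error only. The pairs were made with different kits (a 3′ kit for WT and KO, immune profiling for Young and Aged), so every comparison stays inside a pair: KO over WT, and Aged over Young.

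The files held 68017515 to 85401443 UMIs (unique molecular identifiers, the counted transcripts) per library. Levels were read from barcodes with at least 1000 UMIs, 500 genes and at most 10% mitochondrial UMIs that held at least 1 UMI of CD3 (Cd3d, Cd3e or Cd3g) and 1 of CD8 (Cd8a or Cd8b1). These were 8966 WT, 8153 KO, 9803 Young and 8252 Aged cells, 93.0% to 96.9% of the barcodes that passed the quality filters, with median totals of 4510 to 6870 UMIs. A Cd4 UMI was found in 8 WT, 33 KO, 25 Young and 239 Aged cells. Markers of other cell types were present: 20.1% to 24.0% of the cells held at least 3 UMIs from 9 lists of such markers. WT and KO shared 16 cell barcodes, Young and Aged shared 114, and libraries of different pairs shared 0 or 1.

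HSF1 acts through heat shock elements near the starts of its target genes, and 3 start regions are shown because the results turn on these genes. The promoter table (RefSeq, GRCm38.p6, 250 bases before to 50 after each start) listed 28 of the 34 members. It does not list Hspa8, Hspa9, Hsp90aa1, Hsp90ab1, Hsf1 or St13. The 250 bases before the start are given 5′ to 3′ on the gene's strand, with each pair of units (GAANNTTC or TTCNNGAA) in capitals. They lie at chr17:34972157-34972406 (minus strand, Hspa1a), chr17:34959239-34959488 (minus strand, Hspa1b) and chr5:135887669-135887918 (plus strand, Hspb1).
Hspa1a: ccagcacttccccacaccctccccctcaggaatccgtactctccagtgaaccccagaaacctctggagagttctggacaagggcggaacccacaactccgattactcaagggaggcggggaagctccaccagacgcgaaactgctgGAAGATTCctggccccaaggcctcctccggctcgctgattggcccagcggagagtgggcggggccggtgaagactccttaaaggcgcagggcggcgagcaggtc
Hspa1b: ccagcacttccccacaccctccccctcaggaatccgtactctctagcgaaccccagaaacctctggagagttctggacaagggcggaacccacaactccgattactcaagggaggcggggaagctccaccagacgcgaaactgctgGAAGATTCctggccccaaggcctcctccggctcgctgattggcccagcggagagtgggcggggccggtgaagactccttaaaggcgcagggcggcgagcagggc
Hspb1: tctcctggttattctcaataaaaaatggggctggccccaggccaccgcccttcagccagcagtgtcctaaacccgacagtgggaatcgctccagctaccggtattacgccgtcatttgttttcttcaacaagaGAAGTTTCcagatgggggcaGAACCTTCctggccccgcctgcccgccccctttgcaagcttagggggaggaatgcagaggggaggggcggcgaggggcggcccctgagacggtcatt
Hspa1a and Hspa1b agree at 247 of these 250 positions and differ at 3, with the pair of units 104 bases before the start in both. Hspb1 has its pairs 117 and 97 bases before the start.

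Arrays of 3 units (GAANNTTCNNGAA or TTCNNGAANNTTC) were found in the windows of 5 of the 28 listed members: Hspd1, Hspe1, Hsph1, Chordc1 and Dnajb6. Over all 32851 windows of the table the share was 0.603%, and over its genes 0.662%. The arrays are shown in capitals within 30 bases, at chr1:55088053-55088082 (plus strand, Hspe1), chr5:149636287-149636316 (minus strand, Hsph1), chr9:18292259-18292288 (plus strand, Chordc1) and chr5:29735843-29735872 (plus strand, Dnajb6).
Hspe1: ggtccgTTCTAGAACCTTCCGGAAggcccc
Hsph1: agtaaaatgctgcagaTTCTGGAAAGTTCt
Chordc1: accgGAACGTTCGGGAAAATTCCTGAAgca
Dnajb6: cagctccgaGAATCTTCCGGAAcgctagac
Hspd1 and Hspe1 encode the HSP60 and HSP10 partners of the mitochondrial chaperonin and lie head to head on chromosome 1, so their windows share this stretch. Pairs of units, which the longer arrays contain, were present in 15 of the 28 listed members: 8 of 9 inducible, 5 of 10 mixed and 2 of 9 constitutive ones. In all windows the share was 15.1%, and over all genes 17.0%. A match says that these letters are present, not that the site is bound.

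Together the 34 genes made up 0.793% of all UMIs in WT cells, 0.793% in KO, 0.845% in Young and 0.800% in Aged. The inducible class stood at 1625 counts per 1000000 UMIs (CPM) in WT and 1584 in KO, and at 975 in Young and 906 in Aged. The ratio of these sums was 0.975 (0.967 to 0.982) for KO over WT and 0.930 (0.919 to 0.940) for Aged over Young. Hsp90aa1, which also has a high basal level, made up 59.1%, 61.8%, 51.1% and 53.9% of the inducible UMIs in WT, KO, Young and Aged. Without it the ratios were 0.908 (0.897 to 0.920) and 0.875 (0.861 to 0.890). The mixed class stood at 4897, 4896, 5925 and 5605 CPM in WT, KO, Young and Aged, a ratio of 1.000 (0.995 to 1.004) in the first pair and 0.946 (0.942 to 0.950) in the second. The constitutive class stood at 1408, 1454, 1549 and 1484 CPM, a ratio of 1.03 (1.02 to 1.04) and 0.958 (0.949 to 0.966). Fewer cells of a state and less RNA per cell cannot be told apart in such sums.

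**Figure D1:**
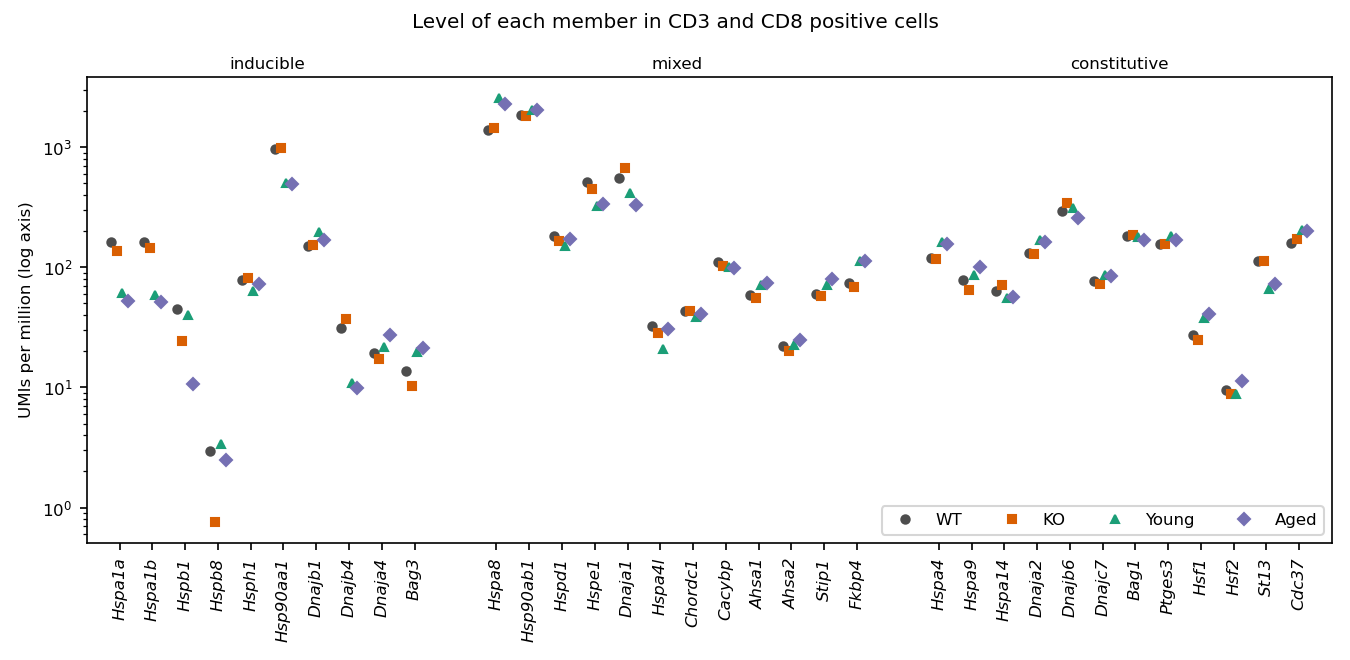
Level of each of the 34 members in CD3 and CD8 positive cells, in CPM on a log axis, with 1 point per library (WT, KO, Young, Aged) and the members ordered by class. Levels are not divided by gene length, so heights are to be compared within a gene. The points of a pair lie close together for most members, and the clearest gaps within a pair are those of Hspb1 and Hspb8.

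HSP70 proteins and their HSP110 partners come first. Hspa1a (chromosome 17, 34969190 to 34972156, minus strand) and Hspa1b (34956436 to 34959238) encode the stress-induced HSP70 and are close copies of each other. The sources used here do not say how reads that match both were counted, so their single values are uncertain, and their sum is the safer measure. Hspa1a stood at 163 CPM in WT (160 to 166), 136 in KO (133 to 138), 60.8 in Young (58.9 to 62.8) and 52.3 in Aged (50.6 to 54.1). Hspa1b stood at 162, 144, 58.8 and 51.8 CPM. The KO level was the lower of its pair for either gene, 0.832 times WT for Hspa1a (0.810 to 0.855) and 0.890 for Hspa1b (0.867 to 0.914), and so was the Aged level, 0.861 times Young (0.821 to 0.902) and 0.879 (0.839 to 0.922). The order of Aged and Young depended on the cells kept: without the cells that held 3 or more UMIs of other cell types the ratios were 1.19 and 1.29, and the mean of per-cell shares gave 1.05 for Hspa1a. Without the cells that held any such UMI the ratios were 0.847 and 0.836, and without cycling cells 0.853 and 0.961.

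Hspa8, the constitutive cytosolic HSP70 that heat raises further, stood at 1388 CPM in WT, 1431 in KO, 2547 in Young and 2270 in Aged. Its ratios were 1.03 (1.02 to 1.04) for KO over WT and 0.891 (0.885 to 0.897) for Aged over Young. Hspa9, the mitochondrial HSP70, had the lowest ratio of the constitutive class in the first pair, with 78.2 CPM in WT and 64.7 in KO, a ratio of 0.828 (0.797 to 0.861). In the transfer pair it lay on the other side of 1, with 87.0 CPM in Young, 101 in Aged and a ratio of 1.16 (1.11 to 1.20). Hspa14, an HSP70-like protein that works at the ribosome, stood at 63.5, 71.4, 55.7 and 57.0 CPM in WT, KO, Young and Aged.

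The HSP110 proteins are relatives of HSP70 that exchange its nucleotide. Hsph1, the inducible one, stood at 78.5 CPM in WT and 81.5 in KO, and at 63.9 in Young and 72.4 in Aged. Hspa4 differed by less than 4% in either pair (118.7 and 117.4 CPM, then 162 and 156). Hspa4l had the highest ratio of all members in the transfer pair, with 21.0 CPM in Young (19.9 to 22.2) and 30.4 in Aged (29.1 to 31.7), a ratio of 1.45 (1.35 to 1.55). In the other pair it was the lower in KO, with 32.2 and 28.3 CPM and a ratio of 0.877 (0.826 to 0.931).

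HSP90 is encoded by a stress-induced and a basal gene. Hsp90aa1 (chromosome 12, 110690605 to 110702728, minus strand) stood at 960.0 CPM in WT (953 to 967), 979.6 in KO (972 to 987), 498 in Young (492 to 503) and 489 in Aged (483 to 494). Its ratios were 1.02 (1.01 to 1.03) and 0.982 (0.967 to 0.998). Hsp90ab1 stood at 1861, 1797, 2047 and 2039 CPM, with ratios of 0.965 (0.958 to 0.973) and 0.996 (0.989 to 1.004). Neither gene differed by more than 4% within a pair.

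Hspd1 and Hspe1, the chaperonin partners with the shared start region shown above, lay on the same side of 1 in each pair. Hspd1 stood at 183 CPM in WT and 167 in KO, and at 152 in Young and 172 in Aged. Hspe1 stood at 514 CPM in WT and 450 in KO, the lowest ratio of the mixed class at 0.875 (0.862 to 0.888), and at 323 in Young and 336 in Aged, a ratio of 1.04 (1.02 to 1.06).

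J-domain proteins bring clients to HSP70. Dnaja1 had the highest ratio of all members in the first pair and the lowest of the mixed class in the second: 550 CPM in WT (545 to 555) and 676 in KO (670 to 682), a ratio of 1.23 (1.21 to 1.25), against 418 in Young (412 to 423) and 328 in Aged (323 to 332), a ratio of 0.784 (0.770 to 0.799). Dnajb6, known for holding back aggregation of polyglutamine proteins, showed the same order, with 294 and 341 CPM and a ratio of 1.16 (1.14 to 1.18), then 313 and 256 CPM and a ratio of 0.818 (0.801 to 0.835). These were the highest and the lowest ratio of the constitutive class. Dnajb1, the main inducible J-domain partner of HSP70, stood at 150 CPM in WT, 154 in KO, 198 in Young and 170 in Aged.

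Dnajb4 had the highest inducible ratio in the first pair, with 31.3 CPM in WT and 36.9 in KO, a ratio of 1.18 (1.12 to 1.25). In the transfer pair it stood at 10.8 and 9.96 CPM, a ratio of 0.922 (0.826 to 1.03). Dnaja4 had the highest inducible ratio in the transfer pair, with 21.8 CPM in Young and 27.1 in Aged, a ratio of 1.25 (1.16 to 1.34), and stood at 19.3 and 17.3 CPM in WT and KO. Dnaja2 and Dnajc7, basal J-domain proteins of the cytosol, had ratios of 0.973 and 0.950 in the first pair and 0.975 and 0.986 in the second.

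Among the other HSP70 cochaperones, Bag3 couples HSP70 to small heat shock proteins and to autophagy. It stood at 13.6 CPM in WT and 10.3 in KO, a ratio of 0.756 (0.686 to 0.832), and at 19.9 in Young and 21.1 in Aged, a ratio of 1.06 (0.980 to 1.15). With no requirement for CD3 and CD8 UMIs the first ratio was 0.624. Bag1, a nucleotide exchange factor, and St13, which steadies the bound state of HSP70, had ratios of 1.03 and 1.000 for KO over WT and 0.950 and 1.10 for Aged over Young.

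The 8 HSP90 cochaperones held narrow ranges. Stip1 bridges HSP70 and HSP90, Ahsa1 and Ahsa2 speed the ATPase of HSP90, Ptges3 slows it, Cdc37 brings kinases, Fkbp4 serves steroid receptors, and Chordc1 and Cacybp bind HSP90 as well. Their KO over WT ratios ran from 0.908 (Ahsa2) to 1.07 (Cdc37). Their Aged over Young ratios ran from 0.937 (Ptges3) to 1.12 (Stip1). None was near 1.5 times.

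The transcription factors of the response were at low levels. Hsf1 stood at 27.1 CPM in WT (25.9 to 28.3), 24.6 in KO (23.5 to 25.8), 38.0 in Young (36.4 to 39.5) and 40.8 in Aged (39.3 to 42.4), with ratios of 0.908 (0.851 to 0.968) and 1.07 (1.02 to 1.14). Hsf2 stood at 9.50, 8.83, 8.78 and 11.3 CPM. It was below the level set for a measured gene in the first pair, and in the second its ratio of 1.28 (1.15 to 1.44) was the highest of the constitutive class. Since HSF1 is set free by protein contacts, its transcript level is no measure of its activity.

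Small heat shock proteins hold unfolded proteins without ATP until HSP70 takes them. Hspb1 (HSP27; chromosome 5, 135887919 to 135889563, plus strand) stood at 45.2 CPM in WT (43.7 to 46.8), 24.2 in KO (23.1 to 25.4), 39.8 in Young (38.3 to 41.5) and 10.6 in Aged (9.82 to 11.4). KO was the lower of its pair at 0.536 times WT (0.505 to 0.568), and Aged at 0.266 times Young (0.244 to 0.290). Hspb8, the partner of BAG3, stood at 2.97, 0.761, 3.35 and 2.50 CPM and was below the level set for a measured gene in both pairs.

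With a measured gene defined as one with at least 20 UMIs over a pair and 10 CPM in 1 of its libraries, 32 members were measured in the first pair and 33 in the second. Hspb1 was the 1 member of 32 that was at least 1.5 times lower in KO, against 3.09% of all 7415 measured genes, and no member was that much higher, against 0.607%. It was also the 1 of 33 that was at least 1.5 times lower in Aged, against 3.83% of 7938 genes, with no member higher, against 2.62%. In 24 of 32 and 23 of 33 members the counting interval left out 1, which speaks for the depth and not for a difference between mice. The members had a median log2 ratio of -0.05 in the first pair and -0.01 in the second, beside -0.05 and 0.08 over all measured genes.

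**Figure D2:**
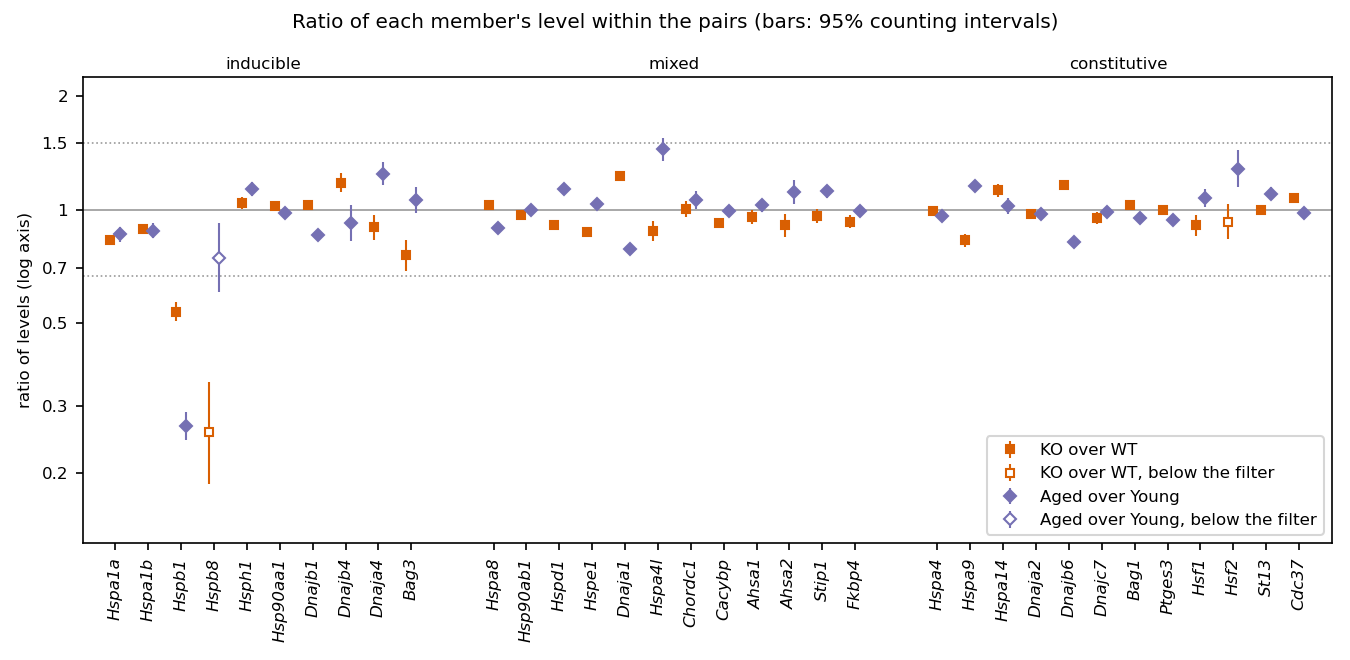
Ratio of each member's level within the pairs (squares KO over WT, diamonds Aged over Young) on a log axis, with 95% counting intervals as bars, a line at 1 and dotted lines at 1.5 times higher and lower. Open symbols are members below the level set for a measured gene. Hspb1, at 0.536 and 0.266, is the only filled symbol outside the dotted lines.

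The low Hspb1 levels of KO and Aged went along with lower transcript levels of several other cell types. Over all measured genes, 3.09% were at least 1.5 times lower in KO and 3.83% in Aged. Of the tumour or epithelial markers, 4 of 6 measured ones were at least 1.5 times lower in KO, with a sum of 182 CPM against 424 in WT, and 3 of 5 were lower in Aged, with 108 CPM against 252 in Young. Fibroblast markers summed to 45.9 CPM in KO against 282 in WT (5 of 5 lower) and to 17.7 in Aged against 49.0 in Young (2 of 2 lower, with Lum at 0 in Young and Aged). Mast cell and basophil markers summed to 319 CPM in KO and 840 in WT (4 of 4 lower), and dendritic cell markers to 766 in Aged and 3303 in Young (6 of 7 lower). Those lists did not do so in the other pair: dendritic cell markers summed to 218 CPM in KO and 212 in WT (0 of 3 lower), and mast cell and basophil markers to 4.73 in Aged and 5.81 in Young, with none measured. Myeloid markers were 0.493 times WT in KO (2 of 3 lower) and 0.582 times Young in Aged (2 of 6 lower). Each sum is over the whole list. The neutrophil, B cell, NK cell and endothelial lists summed to 0.315 to 39.7 CPM in every library. The neutrophil sum was the higher in KO (0.847 against 0.315 CPM) and in Aged (6.89 against 2.91), with none measured. The endothelial sum was the higher in KO, at 21.2 against 15.4 CPM, and the lower in Aged, at 17.1 against 22.1. It was nearly all Pecam1, the 1 endothelial marker measured, at 20.5 CPM in KO and 14.5 in WT. So the KO sum does not speak for the list as a whole. The B cell and NK cell sums were lower in KO and in Aged, with Ighm the 1 B cell marker measured and no NK cell marker measured.

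In barcodes of the same libraries without any CD3 or CD8 UMI, Hspb1 stood at 548 CPM in WT, 306 in KO, 626 in Young and 612 in Aged. Among the T cells, those with no Hspa1a or Hspa1b UMI and fewer than 3 UMIs of other cell types made up 69.2% of WT, 72.8% of KO, 76.5% of Young and 75.2% of Aged cells. They held 3.19%, 4.62%, 0.454% and 2.32% of the Hspb1 UMIs, at 2.70 (2.22 to 3.25), 1.82 (1.44 to 2.27), 0.294 (0.147 to 0.526) and 0.392 CPM (0.224 to 0.636). In these cells Aged was thus not the lower of its pair. Cells with an Hspa1a or Hspa1b UMI and 3 or more UMIs of other cell types were 3.11%, 2.47%, 1.91% and 1.53% of the cells. They held 54.7%, 53.1%, 45.2% and 60.6% of the Hspb1 UMIs. The rest lay in cells with only 1 of these traits. Without all cells of 3 or more UMIs of other cell types, the Hspb1 ratios were 0.784 for KO over WT and 0.595 for Aged over Young. Without cells of any such UMI they were 0.581 and 0.527, and without cycling cells 0.517 and 0.516. With no requirement for CD3 and CD8 UMIs they were 0.326 and 0.555. The part of other cells' RNA in the Hspb1 differences was otherwise not tested.

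Cell by cell, the classes were spread in different ways. In the middle cell of a library the inducible class made up 0.0776% of the UMIs in WT, 0.0824% in KO, 0.0648% in Young and 0.0640% in Aged. At the 99th percentile of cells its share was 2.61%, 2.63%, 0.584% and 0.665%, and in the highest cell 11.9%, 9.91%, 10.2% and 7.61%. By contrast the highest constitutive share was 0.480%, 0.431%, 0.717% and 0.446%. The inducible class took at least 1% of the UMIs in 2.33% of WT, 2.18% of KO, 0.561% of Young and 0.679% of Aged cells, a share that no cell reached for the constitutive class.

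Counts at equal depth showed the same contrast. With every cell thinned to 2000 UMIs, which left out 45 to 611 shallower cells per library, the variance of the summed inducible count was 40.1, 30.2, 15.1 and 10.4 times its mean in WT, KO, Young and Aged. For the mixed class it was 7.07, 6.17, 3.17 and 2.82 times, and for the constitutive class 1.11, 1.12, 1.09 and 1.10 times, where a value of 1 is what counting alone gives. The 5% of cells with the most inducible UMIs held 53.0%, 48.3%, 33.2% and 33.1% of them, while the like share of the constitutive class was 12.1% to 12.6%.

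**Figure D3:**
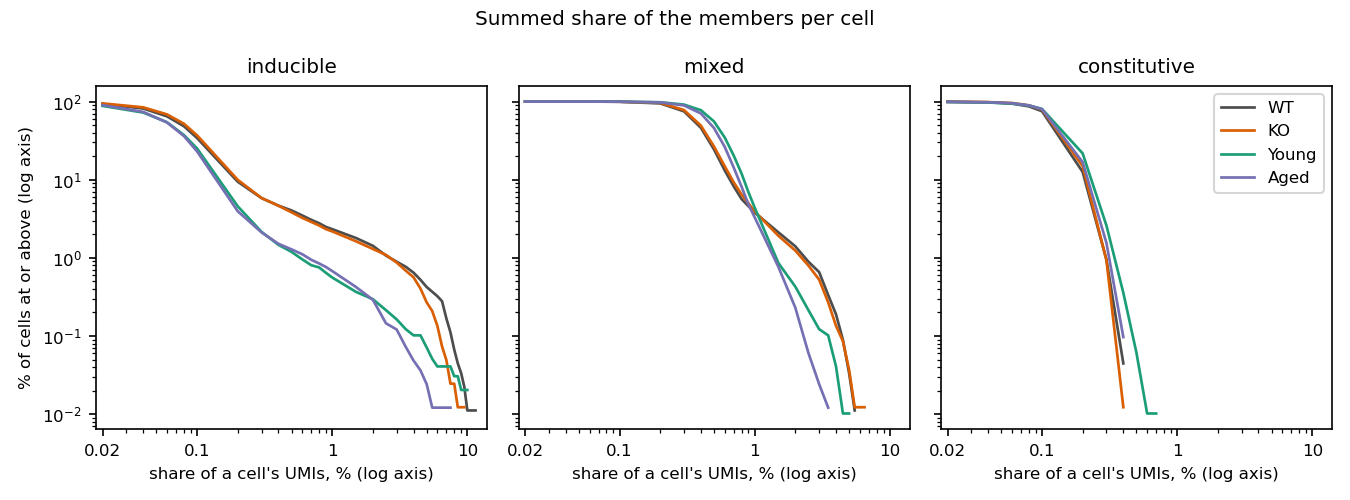
Percentage of cells (log axis) in which a class makes up at least the share of UMIs on the x axis (percent, log axis), with 1 line per library and 1 panel per class. The inducible lines have long tails, to 11.9% of a WT cell's UMIs, and the constitutive lines end below 1%.

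Cells were split by Hspa1a and Hspa1b, and no other member was tried for such a split. After thinning, at least 1 UMI of either was found in 512 of 8886 WT cells (5.76%, exact binomial interval 5.29 to 6.27), 421 of 8108 KO cells (5.19%, 4.72 to 5.70), 278 of 9192 Young cells (3.02%, 2.68 to 3.40) and 237 of 8051 Aged cells (2.94%, 2.59 to 3.34). Without thinning the shares were 9.89%, 9.48%, 5.20% and 4.91%. The intervals of WT and KO overlapped, as did those of Young and Aged. They cover counting error only, so with 1 library per group the overlap cannot show whether the groups differ. No cell type in the libraries is known to lack these genes, so the part of free RNA in the droplets was not tested. A single UMI was seen in 184, 145, 128 and 87 of these cells, which lie next to the cutoff, and 5 or more in 217, 184, 83 and 88. The highest count was 131 UMIs in 2000 in a WT cell, 118 in KO, 184 in Young and 121 in Aged. Of the cells with Hspa1b, 52.9% to 63.3% also held Hspa1a.

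The cells with an Hspa1a or Hspa1b UMI, called Hspa1-positive here, are a range of counts and not a cell type. Their median depth before thinning was close to that of the other cells, at 6223 and 6393 UMIs in WT, 6838 and 6893 in KO, 4879 and 4694.5 in Young, and 6309 and 5873 in Aged. The median mitochondrial share was 2.64% and 2.99% in WT, 2.67% and 3.25% in KO, 0.775% and 0.826% in Young, and 0.878% and 0.869% in Aged. Cells with 3 or more UMIs of other cell types were 24.8% and 24.1% in WT, 21.9% and 20.2% in KO, 28.4% and 20.1% in Young, and 29.1% and 21.6% in Aged.

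Most other members stood higher in Hspa1-positive cells. At least 1.5 times higher were 20 of 30 measured members in WT (5.96% of all measured genes), 20 of 31 in KO (6.25%), 17 of 31 in Young (9.73%) and 17 of 31 in Aged (10.9%). None was that much lower, against 8.93%, 11.2%, 9.17% and 10.1% of all measured genes. In all 4 libraries at once it was 15 of 30 members, beside 44 of 6677 other genes (0.659%). That count includes Hspb1, Bag3 and Dnajb4, which in some or all libraries were measured through the positive cells alone. It was not repeated with a filter on the negative cells. By class, 7 of 7 measured inducible members passed in each library, the mixed class with 12, 11, 9 and 10 of 12, and the constitutive class with 1 of 11, 2 of 12, 1 of 12 and 0 of 12 (WT, KO, Young, Aged). The median ratio was 7.72, 7.37, 4.20 and 4.32 for inducible, 2.91, 2.76, 1.95 and 2.05 for mixed and 1.07, 1.06, 1.07 and 1.02 for constitutive members. A measured member needed 10 CPM in positive or negative cells, so some passed through the positive cells alone: Hspb1 in all 4 libraries, Bag3 in WT and KO (9.37 and 7.09 CPM in negative cells) and Dnajb4 in Young and Aged (8.81 and 9.79). With 10 CPM required in the negative cells, a filter chosen after seeing the data, 5 of 5 inducible members stood at least 1.5 times higher in each library. The mixed class had 12, 11, 9 and 10 of 12, and the constitutive class 1 of 11, 1 of 11, 0 of 11 and 0 of 12. The same filter left 3.74%, 4.07%, 5.77% and 6.85% of all genes that much higher. Cells are not replicates, and these ratios describe the libraries.

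Hspb1 ratios rest on a level under 10 CPM in the negative cells. It stood at 301 CPM in positive and 7.64 in negative WT cells (39.4 times, 31.9 to 48.8), 266 and 3.77 in KO (70.5 times, 52.6 to 95.8), 304 and 6.62 in Young (45.9 times, 36.1 to 58.6), and 86.5 and 1.66 in Aged (52.0 times, 31.1 to 88.5). Hsph1 stood at 749 and 48.2 CPM in WT (15.5 times), 797 and 45.8 in KO (17.4 times), 622 and 45.8 in Young (13.6 times), and 496 and 57.7 in Aged (8.60 times).

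Dnajb1 stood 10.0 times higher in positive WT cells (1117 and 111 CPM), 12.3 times in KO, 4.65 times in Young and 5.87 times in Aged. Hsp90aa1 stood 7.72 times higher in WT (5296 and 686 CPM), 7.27 times in KO, 4.20 times in Young (1788 and 426 CPM) and 4.32 times in Aged. Bag3 ratios ran from 3.29 (Young) to 7.37 (KO), Dnaja4 ratios from 2.40 (Young) to 5.98 (KO) and Dnajb4 ratios from 1.84 (Young) to 2.75 (WT). The Young interval of Dnajb4, 0.825 to 3.58, includes 1. Hspb8 was too low to be measured.

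In the mixed class the chaperonin genes had the highest ratios in WT, KO and Young, and Dnaja1 had the highest in Aged. Hspd1 stood 6.13, 5.91, 3.54 and 2.34 times higher in positive cells of WT, KO, Young and Aged, and Hspe1 4.68, 4.31, 3.38 and 2.61 times. Dnaja1 stood 4.28, 4.01, 2.60 and 2.98 times higher, and Cacybp 3.55, 3.76, 1.97 and 2.17 times. The abundant Hspa8 and Hsp90ab1 had smaller ratios over a larger number of UMIs: Hspa8 went from 1206 to 3489 CPM in WT (2.89 times, 2.79 to 3.00) and from 2437 to 4957 in Young (2.03 times, 1.96 to 2.11), and Hsp90ab1 from 1487 to 4358 in WT (2.93 times) and from 1796 to 3730 in Young (2.08 times). Stip1 passed 1.5 times in WT (2.21) and not in KO (1.22), Young (1.28) or Aged (1.27). Whether such ratios differ between libraries has no replicate check.

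Constitutive members give the other side of the contrast. Cdc37 stood 0.986, 1.03, 0.874 and 0.909 times as high in positive cells, Dnaja2 1.11, 0.999, 1.02 and 0.993 times and Bag1 0.933, 0.980, 1.09 and 0.879 times. St13 was the member of the class that passed in WT (1.84, 1.57 to 2.14) and KO (1.82, 1.54 to 2.15), and it stood at 1.13 and 1.21 in Young and Aged. Hsf1 stood at 1.07, 0.770, 1.07 and 1.18 times, with all 4 intervals including 1. Hsf2 passed in KO (1.75) and Young (1.70) with intervals that include 1 (0.882 to 3.17 and 0.671 to 3.60). Hspa4, the constitutive HSP110 protein, had ratios of 1.18, 1.07, 0.976 and 0.976, beside 15.5, 17.4, 13.6 and 8.60 for Hsph1.

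**Figure D4:**
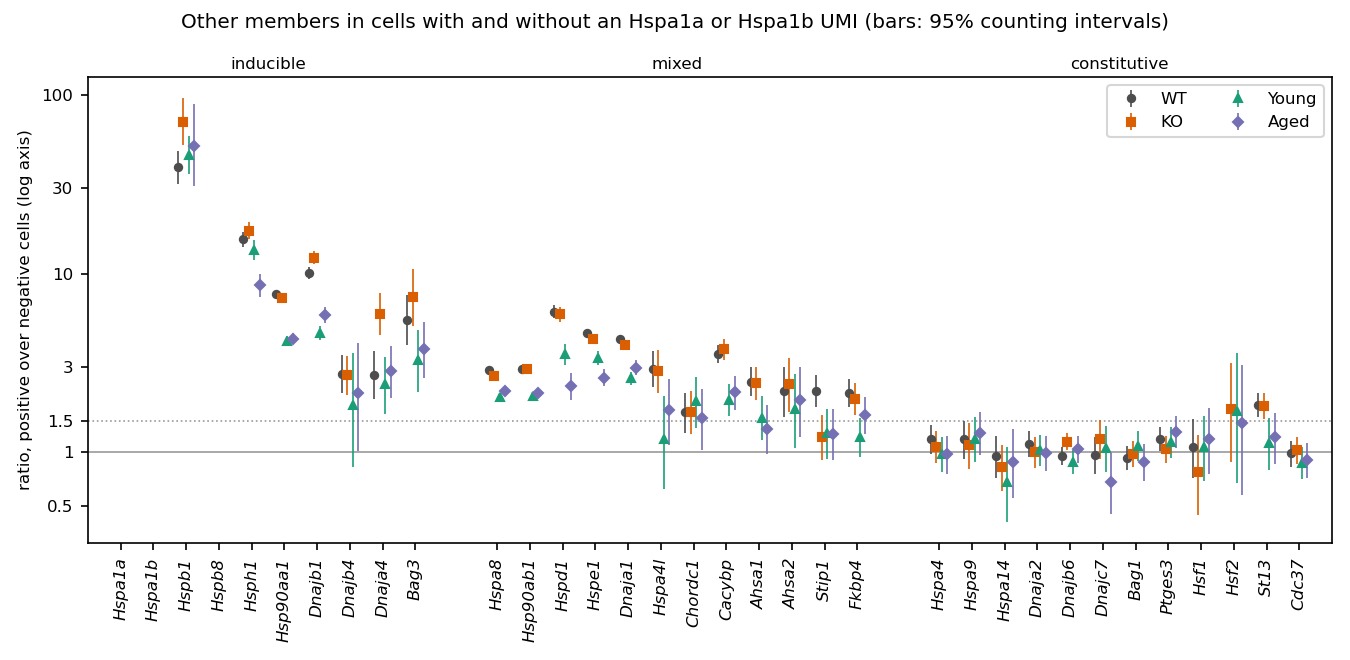
Ratio of each other member's level in cells with and without an Hspa1a or Hspa1b UMI, after thinning to 2000 UMIs, on a log axis with 95% counting intervals, 1 symbol per library, a line at 1 and a dotted line at 1.5. Members that were not measured in a library have no symbol. Inducible members lie above 1.5 in all libraries, mixed ones mostly above it, and constitutive ones around 1.

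The sums of the other inducible and of the mixed members were higher with each step in the number of Hspa1a and Hspa1b UMIs. In WT cells with 0, 1, 2 to 4 and 5 or more of them, the remaining inducible members summed to 910, 2378, 5095 and 13412 CPM. The steps were 943, 2431, 5283 and 13525 in KO, 726, 1449, 2642 and 8229 in Young, and 700, 1799, 2839 and 5784 in Aged. The mixed class went from 4091 to 21279 CPM in WT, from 4252 to 20084 in KO, from 5452 to 18657 in Young and from 5042 to 13494 in Aged. The constitutive class stayed between 1373 and 1734 CPM in all 16 bins. Single members did not all follow the sums: Hspb1 stood at 7.64, 101, 36.0 and 606 CPM over these bins in WT, and at 1.66, 132, 48.4 and 68.2 in Aged. The bins of 2 to 4 UMIs hold 62 to 111 cells per library and those of 5 or more hold 83 to 217.

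**Figure D5:**
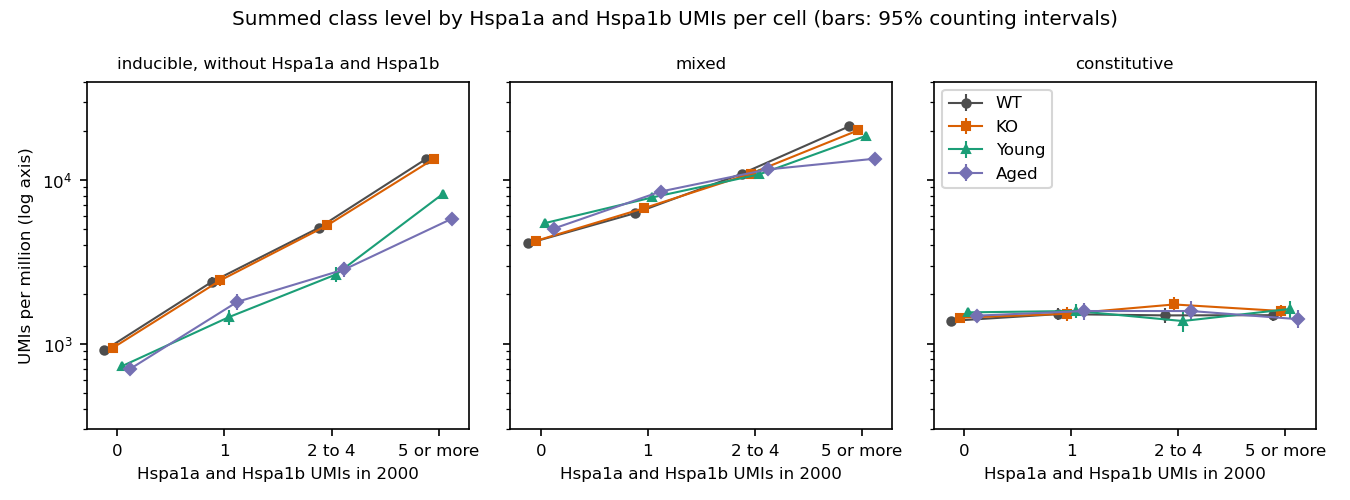
Summed level of each class in CPM (log axis) against the number of Hspa1a and Hspa1b UMIs per cell thinned to 2000 UMIs, with 1 line per library, 95% counting intervals as bars and Hspa1a and Hspa1b left out of the inducible sum. Inducible and mixed sums are higher in each bin than in the one before, in all 4 libraries. The constitutive sums stay between 1373 and 1734 CPM, with the highest in KO cells with 2 to 4 UMIs (1439 with 0).

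Immediate early genes, which T cells switch on within minutes of receptor signals or handling, were also higher in Hspa1-positive cells. Their 14 genes summed to 1.22 times the level of negative cells in WT (1.19 to 1.26), 1.42 in KO (1.38 to 1.45), 1.71 in Young (1.66 to 1.75) and 1.59 in Aged (1.54 to 1.64), with 3, 6, 11 and 10 of 14 at least 1.5 times higher. Of all measured genes, 5.96%, 6.25%, 9.73% and 10.9% were that much higher. Among cells with 4 or more UMIs of these genes, 6.01% of WT, 5.55% of KO, 3.14% of Young and 3.09% of Aged cells were Hspa1-positive. Among those with 0 to 3 the shares were 4.44%, 2.99%, 1.25% and 1.56%. The part of the immediate early response in the heat shock levels was not tested.

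Other chaperone lists had sums close to those of the negative cells. The 16 ER chaperones summed to 1.07, 1.08, 1.14 and 1.11 times the negative level in WT, KO, Young and Aged, the 14 genes of the cytosolic chaperonin CCT and prefoldin to 1.07, 1.03, 1.02 and 1.02 times, and the 13 of mitochondrial import and folding to 0.954, 0.947, 0.945 and 0.951 times. Naive and memory genes were lower in positive cells, at 0.671, 0.678, 0.797 and 0.796 times. Dendritic cell markers were 1.10, 0.940, 2.62 and 3.75 times as high and myeloid markers 1.35, 1.18, 2.20 and 1.91 times, and fibroblast markers were 3.74 times as high in WT. Mast cell and basophil markers were 0.364 times as high in positive cells in WT and 2.59 times in KO.

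The 10 other genes with the highest smallest ratio over the 4 libraries were Tnfsf9, Ccl3, Cxcl2, Il1b, Spin2c, Zfand2a, Atf3, Jun, Ccl4 and Gadd45g. Some passed the 10 CPM filter through the positive cells alone. These were Spin2c in all 4 libraries (2.73 to 4.35 CPM in negative cells) and Cxcl2, Il1b and Zfand2a in WT and KO (3.06 to 9.49). No filter on the negative cells was applied to this ranking. Tnfsf9, the ligand of the costimulatory receptor 4-1BB, stood 7.11, 4.51, 5.18 and 4.90 times higher in positive cells of WT, KO, Young and Aged. Jun stood 2.44, 3.82, 3.55 and 3.37 times higher, and Zfand2a, itself a heat-induced gene, 3.50, 3.14, 2.53 and 3.54 times. Without the cells of 3 or more UMIs of other cell types, Tnfsf9 remained at 9.73, 4.34, 4.82 and 6.12 times and Jun at 2.83, 4.16, 4.32 and 3.68 times. Il1b, a myeloid cytokine, then had no UMI in positive cells of any library, and Cxcl2 had a ratio of 0, 4.66, 1.68 and 2.35.

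Cycling cells and differentiation bands gave further views of the same cells. Of WT cells with at least 2 UMIs of 10 cell cycle genes, 9.48% (7.44 to 11.9) were Hspa1-positive, against 5.44% (4.95 to 5.95) of the others. In KO the shares were 4.78% and 5.22%, in Young 3.09% and 3.01%, and in Aged 3.60% and 2.84%. The summed inducible level of cycling cells was 1.36 times as high in KO (523 cells) as in WT (717 cells), while that of other cells was 0.912 times. In Aged over Young it was 0.968 for cycling and 0.970 for other cells. Cells with fewer than 2 UMIs of both naive or memory genes and exhaustion genes had the highest Hspa1-positive share of 4 such bands in WT (7.22%), KO (7.68%) and Young (3.71%). In Aged all 4 bands lay close to each other, with naive and memory cells at 2.56% and cells of both programmes at 3.28%.

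Chaperone genes outside the 34 were compared between the groups in the same way. The ER chaperones summed to 0.897 times WT in KO (0.891 to 0.903), with 14 of 16 below 1 and a median log2 ratio of -0.23, and to 0.913 times Young in Aged (0.907 to 0.919), with 11 of 16 below 1 and a median of -0.09. The CCT and prefoldin genes summed to 0.954 times WT in KO, with 14 of 14 below 1, and to 1.03 times Young in Aged, with 13 of 14 above 1. Their median log2 ratios were -0.12 and 0.09. The members' medians were -0.05 and -0.01. None of the 16 ER chaperones passed 1.5 times in either pair, with ratios from 0.695 (Pdia6) to 1.09 (Dnajb9) for KO over WT and from 0.745 (Dnajb9) to 1.20 (Hspa13) for Aged over Young. The 14 genes of CCT and prefoldin (0.844 for Pfdn4 to 0.999 for Pfdn5, then 0.919 for Pfdn5 to 1.21 for Pfdn4) and those of mitochondrial import and folding (0.762 for Grpel2 to 0.987 for Tomm20, then 0.947 for Timm23 to 1.33 for Dnaja3) had none past it either. Further HSP70 cochaperones (0.907 for Dnajc21 to 1.10 for Dnajb2, then 0.747 for Hspbp1 to 1.20 for Dnajb12) and HSP90 cochaperones (0.853 for Ppid to 1.04 for Fkbp5, then 0.924 for Pih1d1 to 1.33 for Fkbp5) had none as well.

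Among other genes that heat is known to raise, Zfand2a had a KO over WT ratio of 0.960 and Ier5 of 1.23. For Aged over Young, Hmox1 (heme oxygenase) was lower at 0.546, and Gadd45b stood at 1.05. Of the immediate early genes, 3 of 14 were at least 1.5 times lower in KO, against 3.09% of all genes (lowest Ier3 at 0.428, highest Btg2 at 1.33) and 4 of 14 in Aged, against 3.83% (lowest Atf3 at 0.388, highest Jund at 1.18). Exhaustion genes had 6 of 7 higher in Aged, against 2.62% of all genes, with Lag3 at 3.55 and Tigit lowest at 1.33. In KO 0 of 7 were past the limit (0.782 for Ctla4 to 1.14 for Pdcd1). Cell cycle genes had 2 of 10 lower in KO (lowest Ube2c at 0.593, highest Top2a at 0.925) and none of 10 in Aged (0.870 for Birc5 to 1.10 for Nusap1). Naive and memory genes had none past the limit in KO (highest Il7r at 1.37) and 1 of 6 lower in Aged (Tcf7 at 0.637, with Lef1 highest at 1.003).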

How the data were processed

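The deposited values are raw UMI counts for each gene and barcode. Cell Ranger made them, in version 6.1.1 (WT, KO) or 7.1.0 (Young, Aged) per the file headers and in version 6.0.0 per the submitters' processing notes, which also give Seurat 3.2.3 and mm10. Annotation release and handling of intronic reads: not given in the sources used here. Doublets were not called, and removing the 8% of barcodes with the most UMIs was an alternative. UMIs were summed over the cells and divided by their total (CPM, not divided by length). Levels carry exact Poisson, ratios exact conditional binomial and shares exact (Clopper-Pearson) 95% intervals. Median log2 ratios are of CPM with no pseudocount. Gene positions come from the GENCODE annotation of mm10. Scripts in Python 3.11.15 (numpy 2.4.6, scipy 1.17.1) were tested on simulated data. The members, classes, lists and alternatives were chosen with earlier results of these data known. Named in full are, by rule, the highest and lowest member of each class and list, Hspa1a, Hspa1b, Hspa8, Hsp90aa1, Hsp90ab1, Hsf1 and Hsf2, and 10 other genes of the split. Some genes that this rule or the lists hold are not reported here.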

Additional observations from a re-analysis of the deposited data

How the results depend on the processing

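No paired analysis was possible because each group holds 1 library. Of 320 member ratios for KO over WT under 10 alternatives, 201 stayed within the counting interval and 119 moved, and 41 values of 11 members crossed 1. For Aged over Young 242 of 330 stayed, 88 moved and 20 values of 12 members crossed 1. Only Hspb1 moved by over 1.5 times in either pair. The summed inducible ratio for KO over WT was 0.913 with no CD3 and CD8 requirement, 0.986 without the 8% of barcodes with the most UMIs, 0.958 without cycling cells, 1.01 after division by the median ratio of all genes, 0.824 with equal weight of 3 immediate early bands (0.579 in the band with no such UMI, which holds 69 KO and 100 WT cells, and 0.902 and 0.942 in the others), 0.994 with the mixed class added and 1.003 without Hspa1a and Hspa1b. Chosen after seeing the data, it was 0.945 without barcodes with any UMI of other cell types and 0.962 without Hspa1-positive cells. The constitutive ratio was 1.05 without the top 8%, 1.05 without barcodes with 3 or more UMIs of other cell types, 1.04 without cycling cells, 1.05 without any such UMI (chosen after seeing the data), 1.04 as a mean of per-cell shares, 1.07 over the median ratio, 1.11 with equal bands and 1.01 with the mixed class. For Aged over Young the inducible ratio was, in the same order of settings, 0.915 (no CD3 and CD8 requirement), 0.950 (top 8%), 1.02 (3 or more UMIs of other cell types), 0.956 (cycling), 0.963 (any such UMI) and 0.959 (Hspa1-positive cells), both chosen after seeing the data, 0.967 (per-cell mean), 0.876 (median ratio) and 0.944 (mixed class). The constitutive ratio was 0.903 (median ratio), 0.971 (equal bands) and 0.948 (mixed class). The count of members past 1.5 times for KO over WT was 2 with no CD3 and CD8 requirement (Hspb1 and Bag3), 0 without the top 8%, 0 without barcodes with 3 or more UMIs of other cell types and 2 with no filter on low counts (Hspb1 and Hspb8). For Aged over Young it was 2 without the top 8% (Hspb1 lower, Hspa4l higher at 1.56) and 0 without any UMI of other cell types. Without barcodes with 3 or more such UMIs it was 1, and that gene was Hspa4l, higher at 1.56. For KO over WT the count without any such UMI, chosen after seeing the data, was 1, and that gene was Hspb1. For Aged over Young, Hspb1 was below the level set for a measured gene under both filters on other cell types and so was not counted. Its ratios there, given above, were still more than 1.5 times lower in Aged. The cause of these shifts was not tested. Counts in Hspa1-positive cells lay between 14 and 21 under all settings, the lowest with 10 CPM required in the negative cells, a filter chosen after seeing the data. For the other alternatives the share over all measured genes was not worked out, so these counts alone cannot show stability. With 1 library per group, no difference between the groups can be told apart from a difference between pools of 3 mice, and genes under 10 CPM, such as Hspb8, rest on few UMIs.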
